A study of Homo sapiens with 12 samples.

Results

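The genes described here are 45 genes of the endoplasmic reticulum (ER) that fold, modify, translocate or dispose of secretory proteins, together with sensors and regulators of the unfolded protein response. They were taken by symbol from the deposited table of 58302 genes, with the DNAJ co-chaperones left out. The rule itself uses no measured value, but the list was chosen with earlier results of these data known. All 45 were found, and all 45 passed the filter on low counts that left 17150 genes for testing. By role they comprise 15 chaperones and folding factors, 9 disulfide enzymes, 13 genes of ER-associated degradation (ERAD), 3 sensors and regulators, and 5 genes of translocation and export.

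Poly(A) RNA of 2 human glioma lines, U251 and U87, was sequenced with and without artesunate, a semisynthetic derivative of the antimalarial artemisinin. The 4 groups of 3 libraries were U251 control, U251 with 180 µM artesunate, U87 control and U87 with 24.08 µM artesunate. Treatment lasted 24 h, and every library is labelled day 9. Control cells are labelled as kept in 10% DMEM, and no solvent control is named. The RNA extraction text speaks of artemisinin where the sample labels give artesunate. Because the lines received different doses, line and dose cannot be told apart in any contrast of the artesunate effects. Each line is a single established line, and no label says that the 3 libraries of a group came from separate cultures, so the p-values measure the spread between these libraries, which may be technical.

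Library totals ran from 13631985 to 17314284 counts, and 3 counts correspond to 0.168 to 0.219 CPM (the count scaled to a common library total). Within groups, libraries correlated across genes at 0.985 to 0.987 in both control groups and in treated U251, and at 0.972 to 0.981 in treated U87. Over a list of 9 glioma and astrocyte markers, the summed level was 5550 to 7550 CPM across the 4 groups. VIM alone accounted for 3598 to 6680 CPM of it. AQP4 was at 0 in all groups, SOX2 at 0 in U87 and S100B at 0 in treated U87. GFAP held 0.62 to 1.90 CPM in the U87 libraries. The oligodendrocyte list summed to less than 1 CPM in every library, with MOG and MAG at 0. The microglia and leukocyte list summed to 73.2 to 115 CPM in U87 controls and 31.0 to 60.5 CPM in treated U87. In the U87 libraries CD68 held 22.2 to 92.2 CPM of it and CSF1R 6.42 to 23.05 CPM. PTPRC and CX3CR1 held at most 0.26 CPM and AIF1 was at 0 in every library. The neuron list summed to 117 to 288 CPM in U251 controls and 198 to 221 CPM in treated U251. In U87 it summed to 68.6 to 80.7 CPM in controls and 39.2 to 54.4 CPM with artesunate. TUBB3 held 79.3 to 249 CPM of the neuron list in the U251 libraries and 16.4 to 56.8 CPM in the U87 libraries. SYT1 held 31.6 to 43.9 CPM in U251 and SNAP25 12.1 to 25.7 CPM in U87. STMN2 was at 0 in every library and RBFOX3 held at most 0.22 CPM. The endothelium list reached at most 2.99 CPM and the epithelium list at most 37.2 CPM in any library. The part of any other cell type in the results was not tested.

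Secretory and membrane proteins enter the ER through the Sec61 channel, fold with the help of HSPA5 (BiP), HSP90B1 (GRP94) and the lectins calnexin and calreticulin, and acquire disulfide bonds through protein disulfide isomerases that are reoxidised by ERO1 enzymes. Proteins that fail to fold are drawn back to the cytosol by the ERAD machinery built around SEL1L and SYVN1 (HRD1), and are degraded by the proteasome. When misfolded proteins accumulate, the sensors IRE1 (encoded by ERN1), PERK and ATF6 start the unfolded protein response, in which spliced XBP1 and cleaved ATF6 induce many of the genes above.

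ATF6 and XBP1 can act through the ER stress element (ERSE), whose complete form pairs a CCAAT box with CCACG across 9 bases. The promoters below show how the element sits in 5 of the genes described, chosen as the first 5 in the gene list that hold it. Each is the 250 bases before a RefSeq start (GRCh38.p14), read 5′ to 3′ on the gene's strand, and capitals mark the ERSE on either strand.

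HSPA5, chr9:125241344-125241593, minus strand: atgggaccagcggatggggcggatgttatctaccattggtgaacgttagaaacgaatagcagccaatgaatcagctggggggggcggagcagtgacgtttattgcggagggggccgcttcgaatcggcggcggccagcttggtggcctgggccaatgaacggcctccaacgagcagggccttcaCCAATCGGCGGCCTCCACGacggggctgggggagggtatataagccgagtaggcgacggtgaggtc
HSP90B1, chr12:103930160-103930409, plus strand: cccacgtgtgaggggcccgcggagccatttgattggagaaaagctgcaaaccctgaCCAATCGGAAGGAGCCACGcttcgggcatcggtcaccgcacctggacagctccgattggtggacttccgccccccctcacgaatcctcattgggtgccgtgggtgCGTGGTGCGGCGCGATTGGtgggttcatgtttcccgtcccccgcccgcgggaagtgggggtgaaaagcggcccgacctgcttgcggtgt
CALR, chr19:12938359-12938608, plus strand: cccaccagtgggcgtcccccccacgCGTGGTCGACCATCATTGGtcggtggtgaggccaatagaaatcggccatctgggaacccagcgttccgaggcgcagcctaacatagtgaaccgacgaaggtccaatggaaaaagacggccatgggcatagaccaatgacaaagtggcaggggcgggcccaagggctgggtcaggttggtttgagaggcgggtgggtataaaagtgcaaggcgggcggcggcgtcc
CANX, chr5:179698679-179698928, plus strand: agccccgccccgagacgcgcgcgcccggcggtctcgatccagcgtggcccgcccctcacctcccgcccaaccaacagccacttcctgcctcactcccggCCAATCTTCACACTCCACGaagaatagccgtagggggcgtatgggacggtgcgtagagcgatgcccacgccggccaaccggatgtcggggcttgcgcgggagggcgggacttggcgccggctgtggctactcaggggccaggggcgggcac
PDIA6, chr2:10812786-10813035, minus strand: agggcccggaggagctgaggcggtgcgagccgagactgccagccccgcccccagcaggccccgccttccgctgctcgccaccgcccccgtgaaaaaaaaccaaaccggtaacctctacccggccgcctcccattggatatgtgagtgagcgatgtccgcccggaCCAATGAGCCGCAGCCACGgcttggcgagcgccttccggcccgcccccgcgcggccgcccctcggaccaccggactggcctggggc

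CANX has several RefSeq starts, and the most upstream start whose window holds the element is shown. PDIA6 has another RefSeq start further upstream, whose window does not hold the element. XBP1 also has another start, whose window lacks it. HSP90B1 carries 2 copies, in opposite orientations. The complete element, searched on either strand, was found in 8 of the 41 genes with an entry in the promoter table (19.51%), against 25 of 27305 genes in that table (0.092%). The other 3 genes held it as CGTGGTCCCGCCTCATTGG in ERO1B, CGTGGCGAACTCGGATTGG in CRELD2 and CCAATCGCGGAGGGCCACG in XBP1. The shorter ERSE-II, in which ATTGG and CCACG are parted by 1 base, was found on either strand in HERPUD1, HYOU1 and SDF2L1, which is 3 of 41 (7.32%) against 0.066% of all genes in the table. PDIA3, DERL1, DERL3 and SEC24D had no entry. A match describes the letters in this window and is not evidence of binding.

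The first comparison asked how the ER genes responded to artesunate in U251. Few did. ERN1, FKBP2 (an ER-resident prolyl isomerase) and SELENOS (a selenoprotein that links p97 to the derlins of the ERAD complex) rose, and HSP90B1, the ER paralogue of HSP90, fell. In all, 3 of 45 rose and 1 of 45 fell, beside 4.09% of all genes tested that rose, 4.26% that fell and 8.34% called in either direction (edgeR quasi-likelihood test, Benjamini-Hochberg adjusted over all 17150 genes, called at adjusted p under 0.05). None of the 4 changed by 2-fold or more. The median log2 fold change over the 45 was 0.12, with a range of -0.59 to 0.94.

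ERN1 (chr17:64039142-64130819, minus strand) measured 14.9, 16.7 and 13.6 CPM in the U251 controls against 25.9, 25.2 and 27.6 CPM with artesunate. The groups did not overlap, and the log2 fold change was 0.80 ± 0.11 (SE, n = 3 per group, edgeR adjusted p = 0.0011). The call held under every alternative that was run. FKBP2 (chr11:64241003-64244132, plus strand) went from 24.6, 17.1 and 18.1 to 40.4, 41.4 and 32.7 CPM, again without overlap. Its log2 fold change was 0.94 ± 0.18 (edgeR adjusted p = 0.0094), and without U251 control replicate 2 it was 0.83 with an adjusted p of 0.051.

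SELENOS stood at 57.8, 60.0 and 58.9 CPM in controls and at 72.7, 78.2 and 70.7 CPM with artesunate. All 3 treated libraries lay above all 3 controls, with a log2 fold change of 0.33 ± 0.09 (edgeR adjusted p = 0.042). HSP90B1 (chr12:103930107-103953645, plus strand) went from 839, 845 and 833 to 680, 568 and 608 CPM. The ranges did not overlap, and the log2 fold change was -0.44 ± 0.11 (edgeR adjusted p = 0.034). Both calls rested on the full set of libraries. Leaving out any 1 of the 6 U251 libraries, or U87 control replicate 2, took SELENOS to adjusted p of 0.054 to 0.15. Leaving out any U251 control, or treated replicate 2 or 3, took HSP90B1 to 0.081 to 0.12. With GC content and length corrected for, HSP90B1 was at -0.28 ± 0.08 (adjusted p = 0.061). In that fit 7 of the 45 rose, with DERL1, ERO1A, HSPA13 and HSPA5 added, and PDIA4 fell, beside 4.51% of all genes that rose and 4.22% that fell.

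The main ER chaperone did not pass the uncorrected test in U251. HSPA5 stood at 1069, 1061 and 1029 CPM in controls and at 1161, 1157 and 1168 CPM with artesunate, so the groups were separate. The log2 fold change was only 0.14 ± 0.06 (edgeR adjusted p = 0.19), and 0.19 ± 0.04 after the correction (adjusted p = 0.019). No other alternative that was run gave HSPA5 a call in U251. XBP1 had 0.34 ± 0.17 (adjusted p = 0.26), HERPUD1, a stress-induced membrane component of the HRD1 complex, had 0.41 ± 0.14 (adjusted p = 0.086), and ERO1A, an oxidase of the disulfide isomerases, had 0.32 ± 0.09 (adjusted p = 0.058). CALR, P4HB, PDIA4, SEL1L, SYVN1 and SEC61B had log2 fold changes between -0.17 and 0.21, none called. At an unadjusted p under 0.05, 17 of the 45 genes passed, beside 23.6% of all genes tested. In 17 genes every treated U251 library lay above every control, and in 5 every treated library lay below, beside 18.5% and 18.4% of all genes tested.

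**Figure D1:**
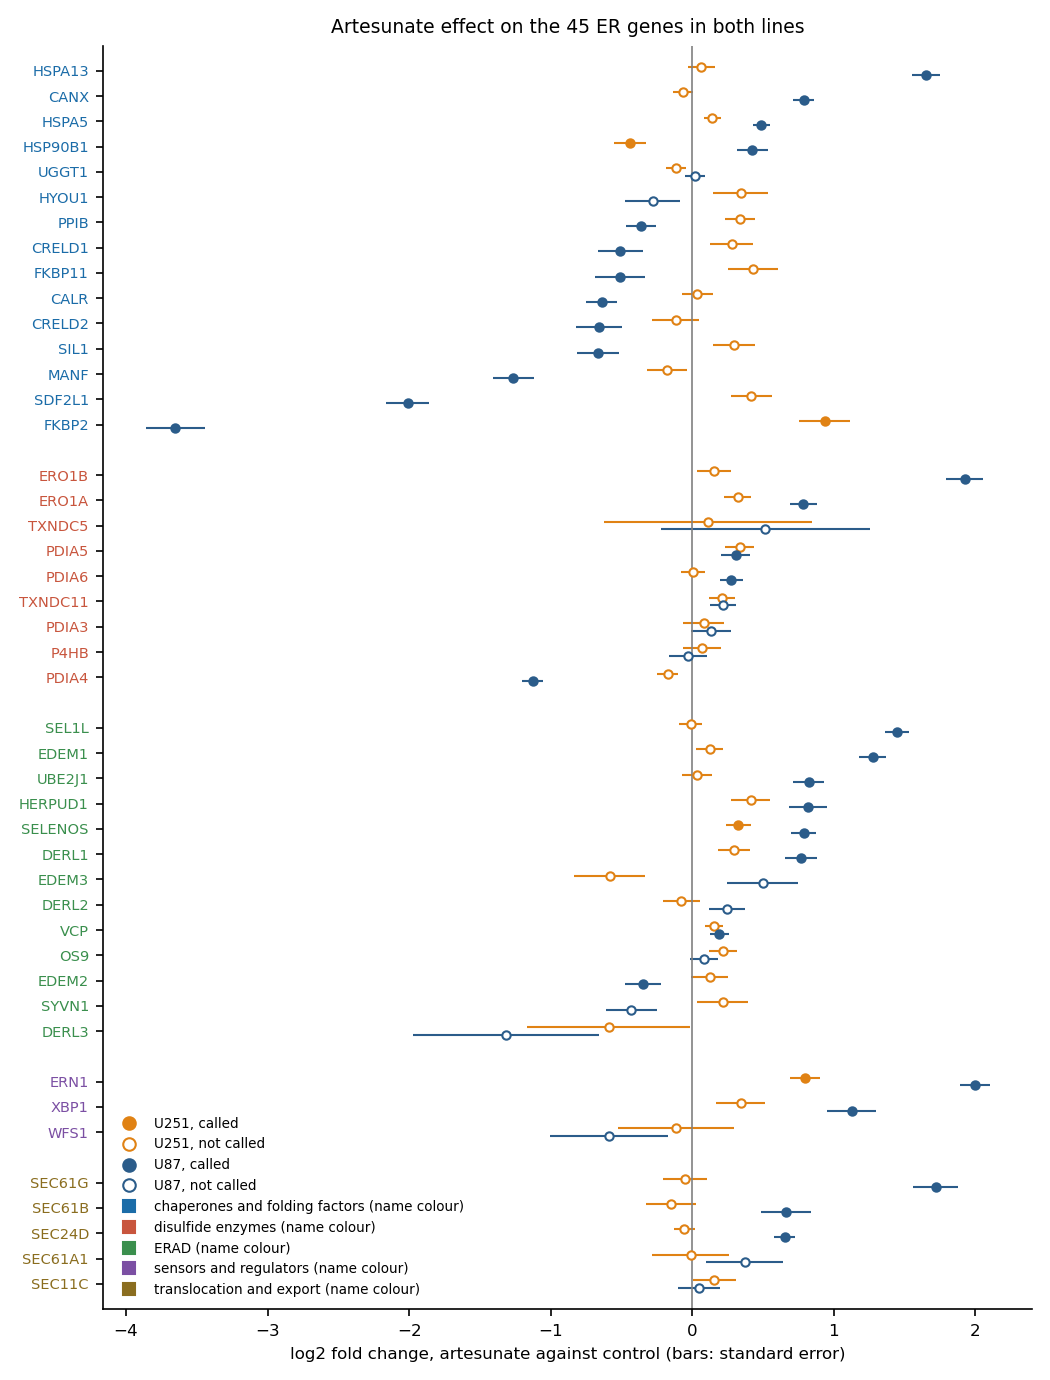
Log2 fold change of each of the 45 genes with artesunate against control (x axis, bars are the standard error) in U251 (orange) and U87 (blue). Filled points passed the adjusted p threshold. The U251 points lie between -0.59 and 0.94, while the U87 points run from -3.65 for FKBP2 to 2.00 for ERN1.

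In U87 the same genes moved widely and in both directions. Of the 45, 20 rose and 11 fell, and 14 were not called, beside 29.2% of all genes tested that rose, 29.2% that fell and 58.3% called in either direction. Genes of ERAD, the sensors and regulators, and translocation and export accounted for 12 of the 20 that rose, while 9 of the 11 that fell were chaperones or folding factors. ERN1, ERO1B, SEC61G, HSPA13, SEL1L, EDEM1 and XBP1 rose by 2-fold or more, and FKBP2, SDF2L1, MANF and PDIA4 fell by 2-fold or more. The median log2 fold change over the 45 was 0.25, beside 0.00 over all genes tested.

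The U87 effects also followed the GC content of the transcripts. Across 17089 genes the correlation of GC content with the U87 log2 fold change was -0.58, and in U251 it was 0.29. These are correlations across genes of the same libraries, which are not independent replicates. The median U87 log2 fold change went from 0.87 in genes of 30 to 35% GC to -2.20 in the 44 genes of 70 to 75% GC. Across the 45 ER genes the correlation was -0.77 in U87 and 0.28 in U251. The 20 that rose in U87 held 34.9 to 52.0% GC, with a median of 44.2%, and the 11 that fell held 51.5 to 65.6%, with a median of 54.5%. What produces this trend was not tested, and most U87 results below are given also as refitted with GC content and length corrected for.

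**Figure D2:**
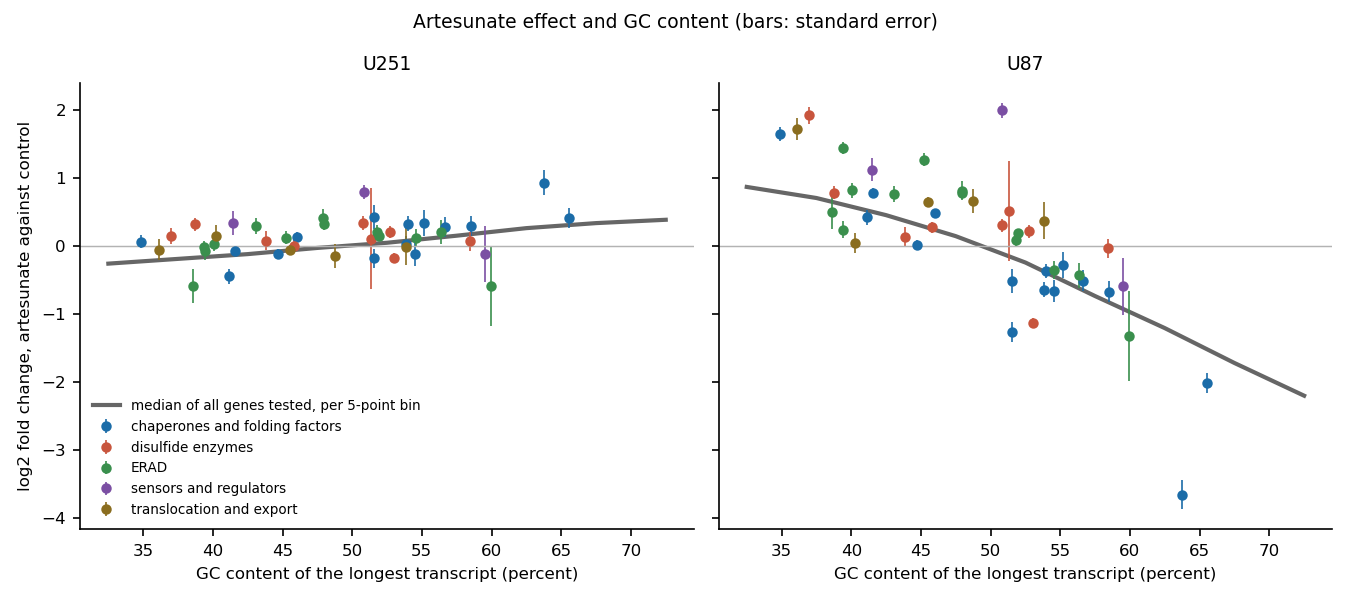
Log2 fold change with artesunate (y axis, bars are the standard error) against GC content of the longest transcript in percent (x axis) for the 45 ER genes in U251 and U87. The grey line is the median of all genes tested in bins of 5 percentage points. In U87 it falls from 0.87 to -2.20 with GC content, and ERN1 at 2.00 and FKBP2 at -3.65 lie off it.

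After the correction, 21 of the 45 rose and 6 fell in U87, beside 23.9% and 21.7% of all genes tested. Of the genes called without it, 17 rose and 4 fell under both fits. ERO1A, HSP90B1 and PDIA6 lost their rise. CALR, CRELD1, CRELD2, EDEM2, FKBP11, PPIB and SIL1 lost their fall. OS9, P4HB, SEC61A1 and TXNDC11 rose and SEC11C and UGGT1 fell only in the corrected fit.

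Among the sensors and regulators, ERN1 and XBP1 rose and WFS1, an ER membrane glycoprotein, was not called. ERN1 stood at 16.2, 16.7 and 17.9 CPM in U87 controls and at 66.9, 73.3 and 62.6 CPM with artesunate. Every treated library held over 60 CPM and no control held 20 CPM. The log2 fold change was 2.00 ± 0.11 (edgeR adjusted p = 8.2e-08), and 2.07 ± 0.09 once GC content and length were corrected for. XBP1, whose mRNA IRE1 splices, went from 81.4, 79.1 and 77.5 to 166, 183 and 171 CPM. Its log2 fold change was 1.13 ± 0.17 (edgeR adjusted p = 0.00017), and 0.70 ± 0.18 after the correction. The deposited gene counts do not separate spliced from unspliced XBP1.

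Of the 15 chaperones and folding factors, 4 rose and 9 fell in U87, with a median of -0.51. Over all genes tested 29.2% rose and 29.2% fell. After the GC and length correction 3 rose and 4 fell, with a median of -0.02, beside 23.9% and 21.7% of all genes. HSPA5 went from 1500, 1477 and 1392 to 2167, 1914 and 2048 CPM. The groups were apart, the log2 fold change was 0.49 ± 0.06 (edgeR adjusted p = 3.9e-05), and it was 0.29 ± 0.04 after the correction.

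HSPA13 (Stch), a microsome-associated HSP70 relative, went from 134, 107 and 121 to 404, 338 and 395 CPM. It rose by 1.65 ± 0.10 on the log2 scale (edgeR adjusted p = 2.1e-07), and by 0.92 ± 0.06 after the correction. CANX, the membrane-bound lectin chaperone calnexin, went from 879, 826 and 830 to 1591, 1337 and 1444 CPM, a log2 fold change of 0.79 ± 0.07, or 0.31 ± 0.04 corrected. Both genes were separate between treated and control libraries. HSP90B1 stood at 1039, 852 and 817 CPM in controls and at 1332, 1049 and 1253 CPM with artesunate. The lowest treated library barely exceeded the highest control, and the log2 fold change of 0.42 ± 0.11 (edgeR adjusted p = 0.0060) became -0.02 ± 0.08 after the correction (adjusted p = 0.85).

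The largest fall among the 45 was that of FKBP2, from 31.0, 46.9 and 43.2 CPM in U87 controls to 2.84, 3.43 and 3.33 CPM. It was 12.6-fold lower, with a log2 fold change of -3.65 ± 0.21 (edgeR adjusted p = 1.4e-07), and -2.32 ± 0.19 after the correction. SDF2L1, a stress-inducible partner of ER HSP40 proteins, went from 34.0, 45.7 and 43.4 to 10.8, 11.2 and 8.53 CPM. It fell by 2.01 on the log2 scale with an SE of 0.15, and its corrected log2 fold change was -0.49 ± 0.17 (adjusted p = 0.038).

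MANF, a secreted ER stress factor, went from 68.9, 70.2 and 71.5 to 32.3, 21.6 and 33.8 CPM. Its log2 fold change was -1.26 ± 0.14, and -1.10 ± 0.14 after the correction. CALR, the soluble lectin chaperone calreticulin, went from 941, 1016 and 896 to 563, 646 and 623 CPM. The groups were clearly apart and the log2 fold change was -0.64 ± 0.11 (edgeR adjusted p = 0.00039), but the corrected value of -0.25 ± 0.10 was not called (adjusted p = 0.057). SIL1, CRELD1, CRELD2, FKBP11 and PPIB fell by 0.36 to 0.67 on the log2 scale, and none of them was called after the correction. CRELD1 was also not called without treated U87 replicate 3 (adjusted p = 0.060), and FKBP11 was not called without U87 control replicate 1 (adjusted p = 0.073) or treated replicate 2 (adjusted p = 0.074).

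Of the 9 disulfide enzymes, 4 rose and 1 fell in U87, and the counts were also 4 and 1 after the correction. Over all genes tested 29.2% rose and 29.2% fell, or 23.9% and 21.7% after the correction. ERO1B, the second ERO1 oxidase, went from 3.82, 4.83 and 4.04 to 14.9, 15.3 and 17.9 CPM. In U251 it stood at 15.9 to 18.7 CPM over all 6 libraries. The treated lines were not tested against each other. The U87 log2 fold change was 1.92 ± 0.13 (edgeR adjusted p = 3.8e-07), and 1.24 ± 0.14 corrected. ERO1A went from 356, 290 and 298 to 584, 532 and 511 CPM, with a log2 fold change of 0.79 ± 0.09. That call was lost after the correction, at 0.16 ± 0.06 (adjusted p = 0.057).

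PDIA4 (ERp72), a multi-domain protein disulfide isomerase, went the other way, from 464, 460 and 441 to 207, 215 and 202 CPM. No treated library came near a control, and the log2 fold change was -1.13 ± 0.07 (edgeR adjusted p = 3.2e-07), or -0.78 ± 0.06 corrected. P4HB, the archetypal protein disulfide isomerase, stood at 678, 748 and 845 CPM in controls and at 699, 826 and 697 CPM with artesunate. These ranges overlapped, with a log2 fold change of -0.03 ± 0.13 (adjusted p = 0.87), yet P4HB has 58.4% GC and its corrected value was 0.85 ± 0.12 (adjusted p = 0.00020). PDIA5 rose by 0.31 and PDIA6 by 0.28 on the log2 scale. Corrected, PDIA5 was at 0.46 ± 0.09 (adjusted p = 0.0011) and PDIA6 at 0.11 ± 0.06, which was not called (adjusted p = 0.14). PDIA5 was not called without U87 control replicate 1 or 3 or treated replicate 3 (adjusted p of 0.059 to 0.10). PDIA6 was not called without control replicate 3 or treated replicate 1 (adjusted p of 0.063 and 0.052). With no filter on low counts, or with only the libraries of the comparison, neither was called (0.054 to 0.13). PDIA5 was also not called with scaling by total counts (0.053), nor PDIA6 with limma on unfiltered log2(FPKM + 1) (0.051).

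Of the 13 ERAD genes, 7 rose and 1 fell in U87, with a median of 0.50. Over all genes tested 29.2% rose and 29.2% fell. After the correction 8 rose and none fell, with a median of 0.29, beside 23.9% and 21.7% of all genes. SEL1L, the scaffold of the HRD1 ligase complex, went from 303, 260 and 269 to 822, 683 and 759 CPM. It rose by 1.44 ± 0.08 on the log2 scale (edgeR adjusted p = 1.5e-07), and by 0.82 ± 0.05 after the correction. Its partner ligase SYVN1 stood at 49.5, 55.8 and 55.7 CPM in controls and at 35.1, 55.2 and 29.2 CPM with artesunate. Treated replicate 2 lay within the controls while the other two lay below them, and the log2 fold change was -0.43 ± 0.18 (edgeR adjusted p = 0.057). Without that replicate it was -0.75 (adjusted p = 3.7e-05), and once corrected for GC and length it was 0.15 ± 0.12, so no direction is given for SYVN1.

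EDEM1, a mannosidase-like factor that marks glycoproteins for disposal, went from 156, 130 and 130 to 366, 334 and 305 CPM. Its log2 fold change was 1.27 ± 0.10, and 1.00 ± 0.08 after the correction. HERPUD1 went from 57.3, 60.4 and 53.1 to 112, 109 and 80.6 CPM, a log2 fold change of 0.82 ± 0.14 that was 0.78 ± 0.14 corrected. SELENOS went from 40.6, 42.4 and 39.0 to 76.1, 62.5 and 72.0 CPM, a log2 fold change of 0.79 ± 0.09 that was 0.76 ± 0.07 corrected. For these 3 genes treated and control libraries were separate, and the correction moved HERPUD1 and SELENOS by less than their standard errors.

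UBE2J1, a membrane-anchored ubiquitin-conjugating enzyme, and DERL1, a derlin of the retrotranslocation complex, rose by 0.82 and 0.77 on the log2 scale, and by 0.26 and 0.35 after the correction. VCP (p97), the ATPase that extracts substrates, rose by 0.19 ± 0.07, and by 0.39 ± 0.05 after the correction (adjusted p = 9.7e-05). VCP was not called without U87 control replicate 1 or 3, treated replicate 1 or U251 control replicate 1 (adjusted p of 0.053 to 0.081). Nor was it called with scaling by total counts, no filter on low counts or only the libraries of the comparison (0.12 to 0.18). The limma fits on FPKM did not call it either (0.11 to 0.19). EDEM2 fell by 0.35. It was not called without U87 control replicate 2 or 3 or treated replicate 1 or 3 (adjusted p of 0.069 to 0.12). The call was also lost with only the libraries of the comparison (0.068) and after the correction (0.10 ± 0.09). DERL3 was barely detected, at no more than 1.69 CPM in any library. It held 15, 16 and 17 counts in U87 controls and 7, 9 and 0 with artesunate. The treated libraries lay below the controls, but DERL3 was not called at a log2 fold change of -1.32 ± 0.66 (edgeR adjusted p = 0.11).

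Of the 5 genes of translocation and export, 3 rose and none fell in U87, beside 29.2% and 29.2% of all genes tested. After the correction 4 rose and 1 fell, beside 23.9% and 21.7% of all genes. SEC61G, the gamma subunit of the channel, went from 72.7, 65.1 and 62.1 to 262, 161 and 237 CPM, and its log2 fold change was 1.72 ± 0.16 (edgeR adjusted p = 3.5e-06), or 0.99 ± 0.13 corrected. SEC61B, the beta subunit, stood at 79.6, 51.2 and 79.6 CPM in controls and at 132, 86.6 and 115 CPM with artesunate. The second library of each group was the lowest, the groups did not overlap, and the log2 fold change of 0.66 ± 0.18 was 0.65 ± 0.16 corrected. SEC24D, a cargo adaptor of COPII vesicles, rose by 0.65 ± 0.07, or 0.42 ± 0.06 corrected.

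**Figure D3:**
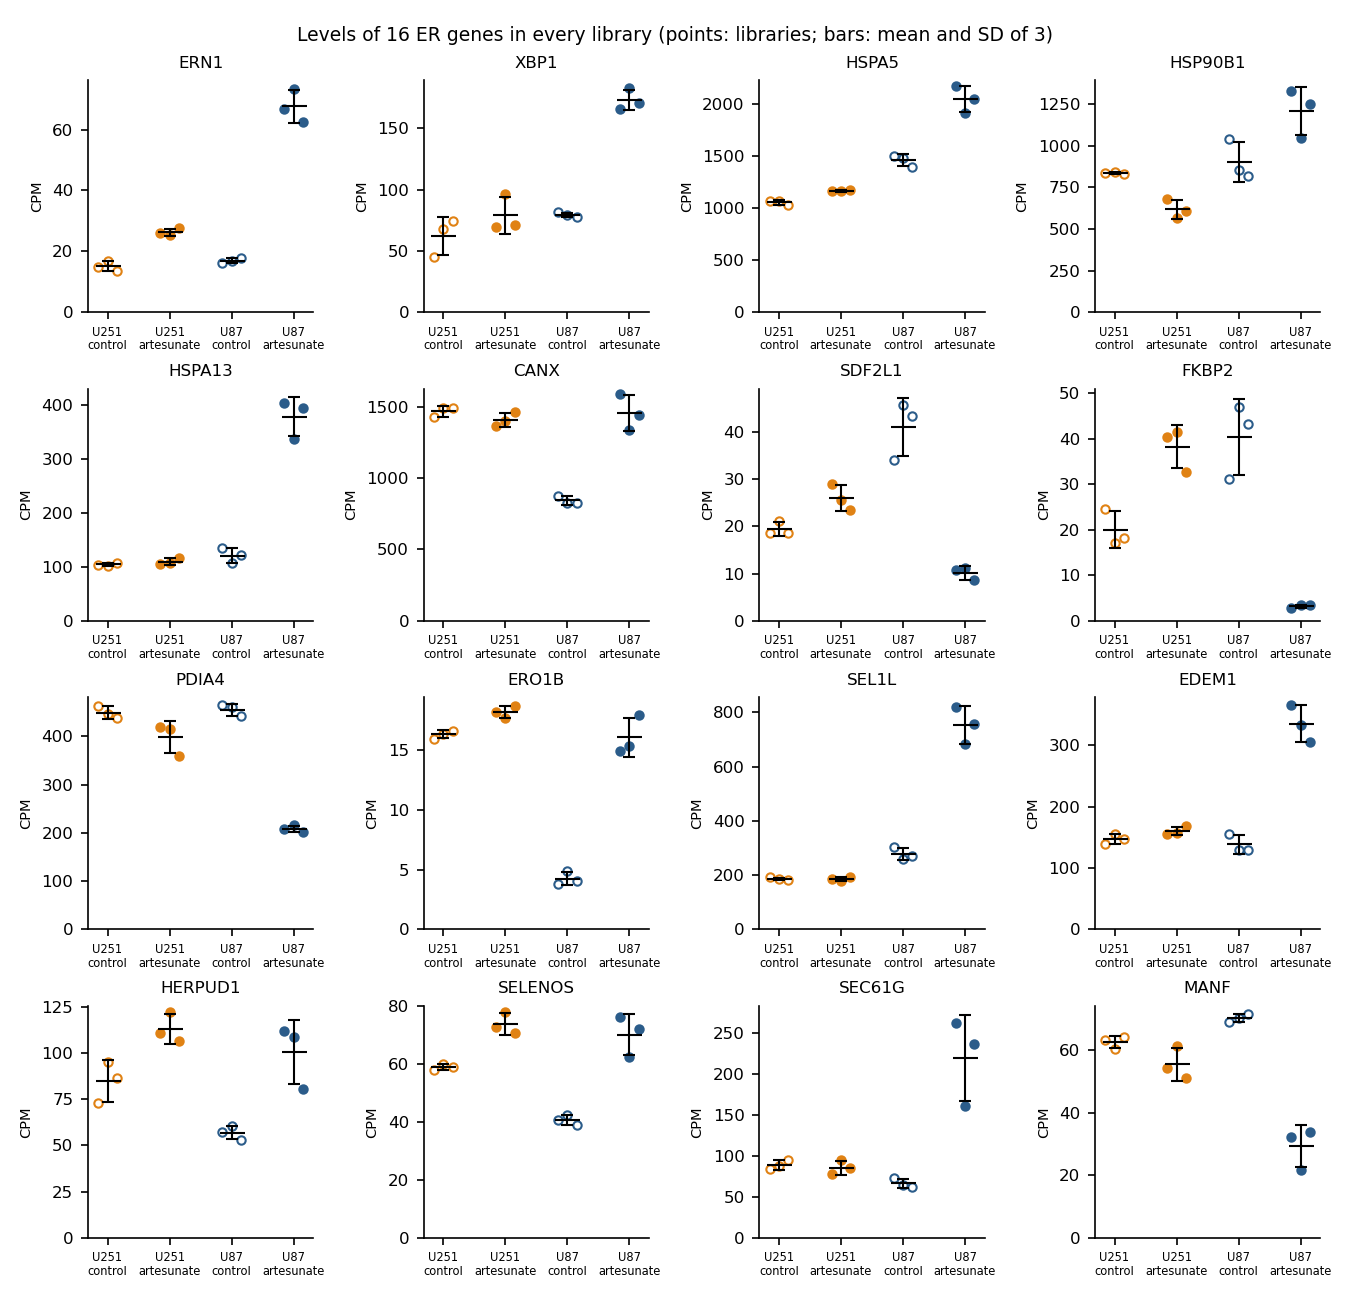
Level in CPM (y axis, from 0) of 16 of the ER genes in each of the 12 libraries. Points are libraries, open for control and filled for artesunate, and bars give the mean and SD of 3. ERN1, XBP1, SEL1L, EDEM1 and HSPA13 stand higher in treated U87 than in any other group, and FKBP2, SDF2L1 and MANF stand lowest there.

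The 45 genes together held 1.02 to 1.08% of the counts in all 6 U251 libraries. In U87 they held 1.10, 1.06 and 1.01% in controls and 1.34, 1.27 and 1.26% with artesunate. The ERAD genes held 0.166, 0.161 and 0.165% in U87 controls and 0.261, 0.252 and 0.243% with artesunate, and in U251 0.191 to 0.194% and 0.198 to 0.212%. These shares are summed counts of a few abundant genes and were not tested.

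Of the 8 genes with a complete ERSE, 6 rose and 2 (CALR and CRELD2) fell in U87, where 29.2% of all genes rose and 29.2% fell. In U251 HSP90B1 fell and the other seven were not called, beside 4.09% of all genes that rose and 4.26% that fell. After the correction HSPA5, CANX, ERO1B and XBP1 were the genes of the 8 called in U87, all higher, and in U251 HSPA5 was called higher and HSP90B1 was not called. Thus the promoters printed above belong to genes that rose (HSPA5, CANX), that fell (CALR) and that rose without holding the call after the correction (HSP90B1, PDIA6).

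The effects in the lines were then compared directly, as the artesunate effect in U251 minus that in U87. Of the 45, 10 had the greater value in U251 and 17 in U87, beside 24.1% and 25.3% of all genes tested, or 49.4% in either direction. After the GC and length correction the counts were 6 and 13, beside 14.2% and 15.9% of all genes, and 3 and 10 genes were called under both fits. FKBP2 and HSP90B1 were called in opposite directions in the lines, while ERN1 and SELENOS rose in both. FKBP2 had the largest difference, 4.59 ± 0.28 (edgeR adjusted p = 1.0e-06), and 3.00 ± 0.26 after the correction. The difference for HSP90B1 was -0.86 ± 0.16 (edgeR adjusted p = 0.00079), but -0.25 ± 0.12 after the correction, which was not called (adjusted p = 0.13). MANF and PDIA4 were the other two with the greater value in U251 under both fits, PDIA4 by 0.95 ± 0.10 (edgeR adjusted p = 2.5e-05) and by 0.53 ± 0.09 corrected. For CALR a difference of 0.68 ± 0.16 (edgeR adjusted p = 0.0036) became 0.20 ± 0.14 and was no longer called (adjusted p = 0.30). SYVN1 was not called at 0.64 ± 0.25 (edgeR adjusted p = 0.052), nor at -0.11 ± 0.17 corrected. P4HB was called only after the correction, which took it from 0.10 ± 0.19 (adjusted p = 0.70) to -0.96 ± 0.17 (adjusted p = 0.0018).

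The 10 genes with the greater effect in U87 under both fits were CANX, EDEM1, ERN1, ERO1B, HSPA13, SEC24D, SEC61B, SEC61G, SEL1L and SELENOS. ERN1 rose in both lines and more in U87, by a difference of -1.20 ± 0.15 (edgeR adjusted p = 6.1e-05) that was -1.37 ± 0.13 corrected. For SEL1L it was -1.46 ± 0.12, or -0.71 ± 0.07 corrected. For SEC61B it was -0.81 ± 0.25 (edgeR adjusted p = 0.018), or -0.76 ± 0.23 corrected. For HSPA5 it was -0.35 ± 0.09 (edgeR adjusted p = 0.0063), but -0.10 ± 0.06 after the correction (adjusted p = 0.26). XBP1 went from -0.79 ± 0.24 to -0.18 ± 0.25, and HERPUD1 was not called at -0.41 ± 0.19. ERO1A changed sign, from -0.47 ± 0.13 to 0.32 ± 0.09, both called. DERL1 was not called without U251 control replicate 3, treated U251 replicate 1 or 3, U87 control replicate 1 or treated U87 replicate 1 (adjusted p of 0.051 to 0.057), nor EDEM3 without U87 control replicate 2 or 3 (0.058 and 0.057). EDEM2 was called only in the full set or without U251 control replicate 3 or treated U87 replicate 2, with adjusted p of 0.063 to 0.12 without any of the others. Over the 45 genes the effects in the lines correlated at -0.11 (Spearman 0.05), as a description across genes of the same libraries.

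The untreated lines differed in the 45 genes at shares near those of all genes tested. Of the 45, 13 were higher and 14 lower in U251 controls than in U87 controls, beside 32.5% and 32.3% of all genes tested, or 64.8% in either direction. ERO1B was 3.85-fold higher in U251, at 15.9, 16.4 and 16.6 against 3.82, 4.83 and 4.04 CPM. CANX, at 1427, 1496 and 1493 against 879, 826 and 830 CPM, was 1.74-fold higher, and HYOU1, a large HSP70-family chaperone, was 1.94-fold higher. EDEM2 at 24.6, 22.4 and 27.1 against 64.7, 67.7 and 69.5 CPM was 2.73-fold lower, and ERO1A at 109, 122 and 124 against 356, 290 and 298 CPM was 2.66-fold lower. For these genes the ranges of the lines did not overlap.

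HSPA5 was lower in U251 controls, with a log2 ratio of -0.47 ± 0.06 (edgeR adjusted p = 3.7e-05). SEL1L was also lower, at -0.57 ± 0.08, and HERPUD1 was higher, at 0.58 ± 0.14. ERN1 (-0.17 ± 0.11) and XBP1 (-0.35 ± 0.17) were not called, although all 3 XBP1 values in U251 (44.7 to 74.3 CPM) lay below those in U87 (77.5 to 81.4 CPM). CALR, HSP90B1, P4HB, PDIA4 and SYVN1 lay between -0.11 and 0.10 and were not called. After the GC and length correction 16 genes were higher and 16 lower, beside 33.5% and 33.1% of all genes. PDIA4 was then called higher in U251 (0.32 ± 0.06) and so were CALR (0.37 ± 0.10), P4HB (0.48 ± 0.12) and SYVN1 (0.37 ± 0.12). HSP90B1 (-0.39 ± 0.08) and XBP1 (-0.53 ± 0.18) were called lower. SEC61B, lower at -0.51 ± 0.18, lost its call without U251 control replicate 1 or 3 or U87 control replicate 1 or 3 (adjusted p of 0.051 to 0.086), and after the correction (-0.23 ± 0.16). SEC61G lost its call without U251 control replicate 2 or 3 or U87 control replicate 2 or 3 (adjusted p of 0.062 to 0.11), and after the correction (0.03 ± 0.13, adjusted p = 0.83).

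**Figure D4:**
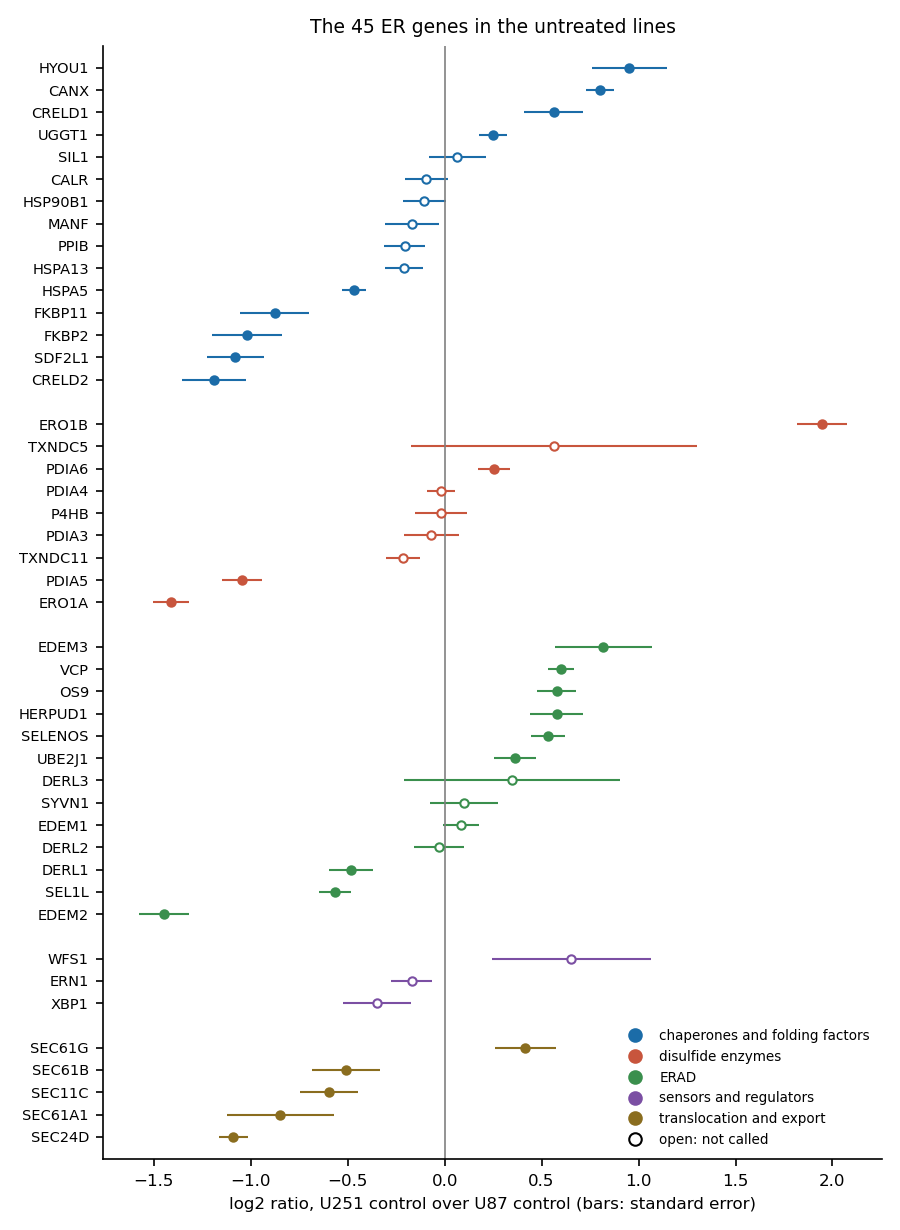
Log2 ratio of U251 control over U87 control (x axis, bars are the standard error) for the 45 ER genes by role. Filled points passed the adjusted p threshold. ERO1B at 1.95 is the highest point and EDEM2 at -1.45 the lowest.

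Levels of different genes can be set side by side only per length, on the deposited FPKM scale. HSPA5 had the highest mean FPKM of the 45 in all 4 groups, at 272 ± 4.92 in U251 controls, 293 ± 5.34 in treated U251, 382 ± 13.2 in U87 controls and 510 ± 19.1 in treated U87 (mean ± SD, n = 3). CALR followed at 183 ± 11.7 FPKM in U251 controls and at 199 ± 10.6 in U87 controls, but in treated U87 it was at 121 ± 11.4, under HSP90B1 at 153 ± 14.7 and CANX at 138 ± 8.80. The treated U87 libraries of CANX (130 to 148 FPKM) overlapped those of both neighbours in this order, while HSP90B1 (137 to 165 FPKM) lay above CALR (110 to 132 FPKM). ERN1 was among the lowest, at 1.24 ± 0.13 FPKM in U251 controls, 2.10 ± 0.13 in treated U251, 1.41 ± 0.08 in U87 controls and 5.37 ± 0.55 in treated U87.

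TXNDC5, a thioredoxin-domain disulfide isomerase, was divided between 2 overlapping gene entries. Its own entry held 664, 6120 and 5829 counts in U251 controls, and the read-through gene BLOC1S5-TXNDC5 held 4578, 0 and 0. The split also appeared in treated U251 replicate 1 and in U87 control replicate 3, where the read-through entry held 3354 and 2827 counts. The summed counts of both entries were 4492 to 6308 in the U251 libraries and 3243 to 4079 in the U87 libraries. On its own entry TXNDC5 had a log2 fold change of 0.11 ± 0.74 in U251 and 0.52 ± 0.74 in U87. Summed over both entries, a choice made after seeing the data, it was 0.00 ± 0.08 in U251 (edgeR adjusted p = 1.0) and 0.10 ± 0.08 in U87 (adjusted p = 0.32), while U251 controls exceeded U87 controls by 0.62 ± 0.09 (adjusted p = 4.5e-05). In all, 17 of the 45 genes overlap another counted gene, 5 of them on the same strand, and the strand setting of the authors' counting is not given in the sources used here.

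**Figure D5:**
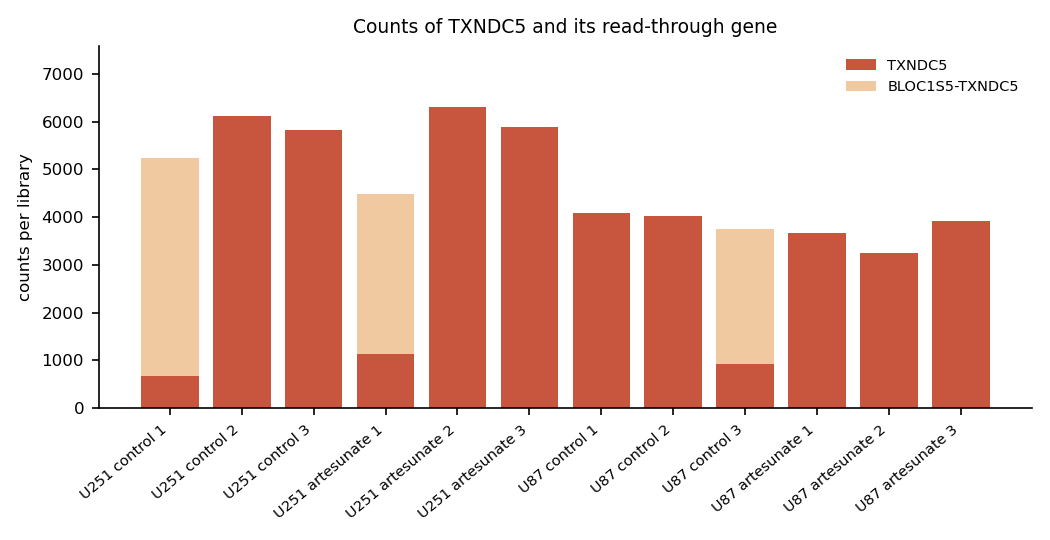
Counts (y axis, from 0) of TXNDC5 and of the read-through gene BLOC1S5-TXNDC5, stacked, in each of the 12 libraries. The read-through entry takes 4578, 3354 and 2827 counts in 3 libraries and at most 1 in the rest.

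The wider pathway was followed in lists of genes outside the 45. In U251, 8 of the 18 genes of the other stress sensors and the PERK and ATF6 arms rose and none fell, with a median of 0.29, beside 4.09% of all genes that rose and 4.26% that fell. Those that rose were ATF4, DDIT3, TRIB3, PPP1R15A, PPP1R15B, SESN2, ATF3 and CHAC1. The list was chosen with earlier results of these data known. Which sensor or kinase lay behind these changes was not tested. EIF2AK3 (which encodes PERK), ATF6, ATF6B, MBTPS1 and MBTPS2 were not called, with log2 fold changes of -0.31 to 0.01. After the GC and length correction 8 rose and 1 fell. ATF4, the transcription factor translated when eIF2alpha is phosphorylated, had the smallest p. It went from 143, 132 and 129 to 375, 371 and 370 CPM, with a log2 fold change of 1.46 ± 0.07 (edgeR adjusted p = 5.5e-07), and 1.33 ± 0.07 corrected. The other lists moved little in U251. None of the 20 other ERAD genes rose and 1 fell (SVIP, an inhibitor of ERAD, -0.47 ± 0.11), none of the 21 translocation and glycosylation genes was called, and 1 of the 22 other ER folding enzymes fell (CLGN, calmegin, -0.39 ± 0.09). Of the 15 ER-to-Golgi genes of COPII transport, 1 rose (SEC16A, 0.52 ± 0.11) and none fell. SVIP, CLGN and SEC16A were not called after the correction (adjusted p of 0.22, 0.10 and 0.060).

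In U87, 10 of the 18 stress genes rose and 4 fell, with a median of 0.77, beside 29.2% of all genes that rose and 29.2% that fell. After the correction 12 rose and none fell, beside 23.9% and 21.7%. TRIB3, a pseudokinase downstream of ATF4, went from 19.0, 22.3 and 17.6 to 205, 238 and 214 CPM, a log2 fold change of 3.48 ± 0.14 (edgeR adjusted p = 1.4e-08) that was 4.61 ± 0.15 corrected. ATF6B, a paralogue of ATF6, had the smallest p among those that fell, at -0.87 ± 0.09, and was not called after the correction (-0.06 ± 0.07). ATF6 (1.15 ± 0.10) and EIF2AK3 (0.92 ± 0.10) rose in the uncorrected fit, and their corrected values are not given here. Of the other ERAD genes 9 of 20 rose and 5 fell, of the translocation and glycosylation genes 10 of 21 and 2, of the folding enzymes 11 of 22 and 5, and of the COPII genes 9 of 15 and 3. The corrected counts were 8 and 4, 8 and 0, 5 and 5, and 6 and 3 in the same order. The genes with the smallest p in each direction were UBXN4 (1.25) and TMUB1 (-2.96) for ERAD, STT3B (0.86) and SRPRA (-0.34) for glycosylation and translocation, CLGN (1.89) and PRKCSH (-1.68) for folding, and SAR1B (0.93) and SEC13 (-0.85) for COPII, all as log2 fold changes. SRPRA was not called after the correction (-0.11), and the other seven kept their direction and call. CLGN was called in opposite directions in the lines before the correction.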

How the data were processed

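Poly(A) RNA was sequenced in 12 libraries. According to the design text, the authors filtered reads by fastp, mapped to GRCh38 using HISAT2 2.1.0, quantified expression in StringTie 1.3.3b, normalised by TMM and compared groups with edgeR 3.30.3. The deposited table gives gene counts, taken as the authors deposited them, and the authors' FPKM values, used only to set levels of different genes side by side and in an alternative test. Whether counting used strand is not given in the sources used here.

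Counts were tested with edgeR 4.0.16 in R 4.3.3 (quasi-likelihood F test, TMM factors, 1 mean per group over all 12 libraries, Benjamini-Hochberg over 17150 genes). Genes were kept by filterByExpr at a minimum count of 10 and a minimum total of 15. Standard errors were derived from the log2 fold change and F, and CPM use the TMM-scaled library size. Scripts were tested on simulated data. Alternatives were DESeq2 1.42.0, limma 3.58.1 on log2(FPKM + pseudocount), other scalings and filters, a replicate block, correction for GC content and length of transcripts, and leaving out each library.

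The 45 genes, their classes and the other lists were chosen with earlier results of these data known. Called genes may be named, and 12 (HSPA5, HSP90B1, CALR, PDIA4, P4HB, ERO1A, HERPUD1, SEL1L, SYVN1, XBP1, ERN1 and SEC61B) are given in every comparison. Outside the 45, the called gene with the smallest p is named per list and direction. In the list of stress sensors and the PERK and ATF6 arms, further genes are named. Promoters come from RefSeq GRCh38.p14, and 41 of the 45 matched by symbol.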

Additional observations from a re-analysis of the deposited data

Results flagged for a closer look

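The artesunate effect differed between the lines in 27 of the 45 genes, by edgeR's test of the difference itself, beside 49.4% of all genes tested. The values here are log2 differences, the effect in U251 minus that in U87, and they cannot be told apart from the different doses, 180 µM in U251 and 24.08 µM in U87. The effect was more positive in U87 for SEC61G (-1.77), ERO1B (-1.77), HSPA13 (-1.58), SEL1L (-1.46), ERN1 (-1.20), EDEM1 (-1.15), EDEM3 (-1.08), HSP90B1 (-0.86), CANX (-0.85), SEC61B (-0.81), UBE2J1 (-0.79), XBP1 (-0.79), SEC24D (-0.71), DERL1 (-0.47), ERO1A (-0.47), SELENOS (-0.46) and HSPA5 (-0.35). It was more positive in U251 for EDEM2 (0.48), CALR (0.67), PPIB (0.70), CRELD1 (0.78), FKBP11 (0.94), PDIA4 (0.95), SIL1 (0.96), MANF (1.09), SDF2L1 (2.43) and FKBP2 (4.59). Adjusted p ran from 1.0e-06 for FKBP2 to 0.047 for EDEM2. The U87 effects followed GC content, with a correlation of -0.77 across the 45 genes. After a correction for GC content and length, 13 of these 27 genes were called in the same direction. In that fit 6 of the 45 had the greater value in U251 and 13 in U87, beside 14.2% and 15.9% of all genes tested. The part of GC content in the differences was otherwise not tested.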

How the results depend on the processing

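The U251 counts were the least stable. The number of the 45 genes higher in U251 went from 3 to 7 with DESeq2, 10 with only the libraries of the comparison and 7 with the GC and length correction, and was 1 to 6 when single libraries were left out. The number lower there was 0 to 1 when single libraries were left out. Over all genes the 1431 calls in U251 became 2328 with DESeq2, 864 with no filter on low counts, 2892 with only the libraries of the comparison, 888 with the GC and length correction and replicate block, and 652 to 2582 when single libraries were left out. In U87 the number lower went from 11 to 6 with the GC and length correction and to 5 when the block was added. The genes with the greater value in U251 went from 10 to 6 and 5 under those fits, and all genes called for the difference from 8478 to 5155 and 4432. The comparison of the effects was not run with only the libraries of the comparison, since it uses all 12.

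Replicate numbers are shared between groups, but same-numbered control and treated libraries did not deviate together, with correlations of 0.041, 0.00 and 0.038 in U251 and 0.053, 0.050 and -0.009 in U87. The numbers were therefore not taken as pairs. With the replicate block 3 genes were higher and 1 lower in U251, and 19 and 12 in U87. The block ended the calls of SELENOS in U251 (adjusted p = 0.080), of VCP (0.053) and FKBP11 (0.051) in U87 and of the difference for DERL1 (0.074), and gave calls to ERO1A in U251 (0.043) and to SYVN1 in U87 (0.034) and for the difference (0.035). With the block and the GC and length correction, FKBP2 in U251 was at 0.070, and SDF2L1 (0.087) and DERL1 (0.057) in U87. HSPA5 in U251 was not called in that fit.

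These genes changed sign, and the cause was not tested beyond the settings named. With the GC and length correction, without and with the replicate block, the U251 effects of SEL1L were 0.111 and 0.112, of CALR -0.043 and -0.052 and of P4HB -0.113 and -0.096. The U87 effects were 0.182 and 0.177 for CRELD1, 0.149 and 0.128 for SYVN1, 0.103 and 0.096 for EDEM2, -0.024 and -0.023 for HSP90B1, 0.163 and 0.160 for SIL1, 0.002 and 0.006 for PPIB, and 0.846 and 0.847 for P4HB. The differences were -0.051 and -0.046 for CRELD1, 0.322 and 0.324 for ERO1A, -0.110 and -0.089 for SYVN1, -0.070 and -0.060 for EDEM2, -0.040 and -0.037 for SIL1, -0.959 and -0.943 for P4HB, and 0.023 and 0.019 for DERL1. The control ratios were -0.106 and -0.105 for UBE2J1, 0.324 and 0.324 for PDIA4, 0.370 and 0.373 for CALR, 0.481 and 0.472 for P4HB, and -0.029 and -0.029 for UGGT1. With other settings SEL1L in U251 was 0.014 with no filter, and CALR in U251 was -0.001 with total counts and -0.010 with log2(FPKM + 1), with or without its filter, and with log2(FPKM + 0.1). Leaving out single libraries gave -0.036 to 0.015 for SEL1L, -0.089 to 0.150 for CALR and -0.042 to 0.227 for P4HB in U251, -0.127 to 0.027 for P4HB in U87, -0.005 to 0.263 for the difference of P4HB, and -0.193 to 0.004 for HSP90B1 and -0.185 to 0.084 for P4HB between the controls. Summing TXNDC5 with its read-through gene, chosen after seeing the data, gave TXNDC5 itself a call between the controls (0.622, adjusted p = 4.5e-05) and changed no call of another named gene.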
